A study of Homo sapiens with 36 samples.

Results

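The comparison described here sets ATF4 knockout U2OS cells that had received the dimerizer for 16 h against untreated ATF4 knockout cells collected at 0 h. Its 6 libraries, 3 treated and 3 untreated, were chosen by their labels from the 36 libraries of the series, and every gene of the table was considered. U2OS is a human osteosarcoma line, and per the labels all 36 libraries came from U2OS cells that stably express Dmr-PERK, the untreated and the wild-type (WT) ones included. Dmr-PERK joins the eIF2α kinase domain of mouse PERK to DmrB, a domain that dimerises when the ligand AP20187 (the dimerizer) binds it. The 16 h wells are labelled with the genotype ATF4KO and with dimerizer (Dim) at a dose for which the labels give no unit. The 0 h wells carry the same genotype and the label NT. WT cells with the same construct, at 16 h with dimerizer and at 0 h, are set beside them where the genotypes are compared, and knockout cells at 2, 4, 8 and 24 h where the course is described. The labels do not say which part of ATF4 was edited, whether the knockout line is 1 clone, or whether wells that share a label were grown as separate cultures. The p-values therefore measure only how far these wells spread, which may be technical. Neither untreated wells at 16 h nor cells lacking Dmr-PERK are part of the data used here, and the kinase, the ligand and 16 h in culture cannot be told apart.

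The integrated stress response starts when an eIF2α kinase such as PERK phosphorylates eIF2α, which lowers general translation and raises translation of a few mRNAs with upstream open reading frames. ATF4, one of these, is a bZIP transcription factor that induces amino acid synthesis, amino acid transport, tRNA charging and feedback genes such as TRIB3 and PPP1R15A. The unfolded protein response shares PERK with this pathway but has separate arms through ATF6 and through IRE1 and XBP1, which are known to induce chaperones of the endoplasmic reticulum (ER). A cell that lacks ATF4 protein can still phosphorylate eIF2α, so the comparison asks which transcripts move after kinase activation without ATF4.

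Gene levels are given in CPM, read counts scaled to one common library size, with library sizes adjusted by the trimmed mean of M values (TMM). Total counts per library were 8651472 to 14982689 at 16 h and 9520202 to 15234619 at 0 h, within the 8608541 to 16264785 of all 36 libraries. Mitochondrial transcripts took 4.3 to 4.38% of the counts at 16 h and 5.72 to 5.86% at 0 h. ATF4 transcripts were present in every knockout library, with 713, 751 and 729.7 CPM at 16 h, against 259, 274 and 265 CPM at 0 h. WT cells had 683 CPM at 16 h and 318 CPM at 0 h (means, n = 3 each). Counts over the whole gene therefore do not check the knockout, since an edit can stop the protein and leave the transcript. Of 12 markers of mesenchymal and bone cells, 9 had enough counts to be tested, and their summed level was 3598 to 3677 CPM at 16 h and 5981 to 6099 CPM at 0 h. VIM and COL1A1 were the leading markers, while TWIST1, SP7 and BGLAP, the last of these a marker of mature osteoblasts, did not have enough counts. Of 18 markers of other cell types, 12 were tested, with a summed level of 39.2 to 44.21 CPM at 16 h and 34.29 to 36.65 CPM at 0 h, and 6 of the 12 lay below 1 CPM at 16 h and 4 at 0 h. The part of these shifts in the results was not tested.

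After 16 h, 12512 of 19043 tested genes had changed in the knockout cells at an adjusted p under 0.05 (65.7%; edgeR quasi-likelihood F-test with Benjamini-Hochberg adjustment over all tested genes, as for every adjusted p in the text). Of these, 6289 rose (33% of the tested genes) and 6223 fell (32.7%). Changes of at least 2-fold were fewer upward than downward, with 1273 genes higher (6.68%) and 2718 lower (14.3%). The median log2 fold change over all tested genes was -0.028. Changes given below are log2 fold changes of 16 h over 0 h unless stated otherwise, with the SE after the ± sign. In 13025 genes (68.4%) the 3 treated libraries did not overlap the 3 untreated ones. Every count of list members below is to be read against these shares, since a list with members called in both directions at these shares resembles the whole table. In bulk RNA, fewer cells with a transcript and less of it per cell cannot be told apart.

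Genes of the stress pathway itself parted into those that still rose and those that fell. Of 27 transcription factors and effectors known from the integrated stress response, 6 rose and 14 fell, with a median log2 fold change of -0.26. CEBPG, a bZIP partner of ATF4, rose most of the 16 genes followed throughout, with 79.7, 75.2 and 73.4 CPM at 16 h, against 22.4, 22.6 and 19.3 CPM at 0 h (log2 fold change 1.85 ± 0.068 (SE), adjusted p = 9.2e-26). ATF4's own transcript rose by a log2 fold change of 1.46 ± 0.032 (adjusted p = 3.7e-33). For both genes all 3 treated libraries lay above all 3 untreated ones by a wide margin. NFIL3, a bZIP repressor, had 41.5, 38.6 and 38.4 CPM at 16 h, against 16.1, 17 and 16.3 CPM at 0 h (log2 fold change 1.27 ± 0.075 (SE), adjusted p = 7.1e-19). The feedback genes rose by less: TRIB3, a pseudokinase that restrains ATF4, had 37.5, 43.7 and 34.9 CPM at 16 h, against 23.9, 21 and 22.4 CPM at 0 h (log2 fold change 0.78 ± 0.079 (SE), adjusted p = 1.0e-11). PPP1R15A, which brings a phosphatase to eIF2α, had 78.9, 79.6 and 77.9 CPM at 16 h, against 58.1, 62.6 and 60.7 CPM at 0 h (log2 fold change 0.38 ± 0.065 (SE), adjusted p = 2.3e-06). SESN2, a leucine sensor that restrains mTORC1, rose by a log2 fold change of 0.50 ± 0.094 (adjusted p = 9.1e-06). The groups did not overlap for any of these genes.

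DDIT4, which encodes the mTORC1 inhibitor REDD1 (GRCh38 chr10:72273920-72276036, plus strand), fell furthest of the 16 followed genes. It had 5.33, 5.98 and 5.26 CPM at 16 h, against 42.3, 45.1 and 43.8 CPM at 0 h (log2 fold change -2.99 ± 0.13 (SE), adjusted p = 8.1e-23). GDF15, a secreted stress hormone, had 5.94, 6.33 and 5.49 CPM at 16 h, against 31.9, 35.9 and 28.5 CPM at 0 h (log2 fold change -2.42 ± 0.13 (SE), adjusted p = 4.9e-20). ATF3, a bZIP factor, had 39.5, 43.2 and 37.4 CPM at 16 h, against 122, 139.9 and 129 CPM at 0 h, a log2 fold change of -1.71 ± 0.12 (adjusted p = 4.9e-16). In all 3 genes the 16 h libraries were low and close together, and none came near an untreated library. VLDLR, a lipoprotein receptor, fell to 12.2 ± 1.06 CPM at 16 h, against 17.4 ± 1.55 CPM at 0 h (log2 fold change -0.54 ± 0.092 (SE), adjusted p = 2.1e-06). Among the list members outside the 16, KLHL24, a ubiquitin ligase adaptor, had 6.95, 6.22 and 7.2 CPM at 16 h, against 42, 47.2 and 52.2 CPM at 0 h (log2 fold change -2.80 ± 0.13 (SE), adjusted p = 5.5e-22). TRIB1, a pseudokinase that directs C/EBP proteins to degradation, had 19.1, 22.9 and 20.1 CPM at 16 h, against 134, 139.5 and 137 CPM at 0 h (log2 fold change -2.74 ± 0.057 (SE), adjusted p = 4.0e-34). NUPR1, INHBE and ADM2, named after their values were seen, also fell, with log2 fold changes of -2.65 ± 0.22, -1.98 ± 0.32 and -3.15 ± 0.25.

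Several genes best known as ATF4 targets moved little or were too low to measure well. ASNS, asparagine synthetase, had 14.4, 15.2 and 13.8 CPM at 16 h, against 16.5, 18.2 and 17.2 CPM at 0 h, a log2 fold change of -0.26 ± 0.094 (adjusted p = 0.014). Its call was lost when any of 3 single libraries was left out, with adjusted p of 0.0605 without 0 h replicate 2, 0.0605 without 16 h replicate 1 and 0.0501 without 16 h replicate 3. DDIT3, which encodes CHOP, had 25.5, 23.9 and 24.1 CPM at 16 h, against 23.5, 23.3 and 25.2 CPM at 0 h, and its change did not pass the test (log2 fold change 0.032 ± 0.094 (SE), adjusted p = 0.78). SLC7A11, the cystine transporter, had 1.55, 2.23 and 1.26 CPM at 16 h, against 2.7, 2.14 and 1.81 CPM at 0 h (log2 fold change -0.38 ± 0.25 (SE), adjusted p = 0.19). CHAC1, which degrades glutathione, was near its detection limit, with 0.608, 0.352 and 0.343 CPM at 16 h, against 0, 0.356 and 0.0646 CPM at 0 h (log2 fold change 1.69 ± 0.78 (SE), adjusted p = 0.056), and it passed the test with DESeq2 (adjusted p = 0.0336), without a filter on low counts (adjusted p = 0.0378) and without 0 h replicate 2 (adjusted p = 0.00972). FGF21 had 0 counts in all 6 libraries, which allows an expected count of up to 3 in each. EIF2AK3, which encodes PERK, was slightly higher at 16 h, with 933, 898 and 880.4 CPM at 16 h, against 850.4, 837 and 862 CPM at 0 h (log2 fold change 0.09 ± 0.028 (SE), adjusted p = 0.0047). How reads of the mouse PERK domain in the transgene were assigned was not tested, so the EIF2AK3 counts may hold them.

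**Figure D1:**
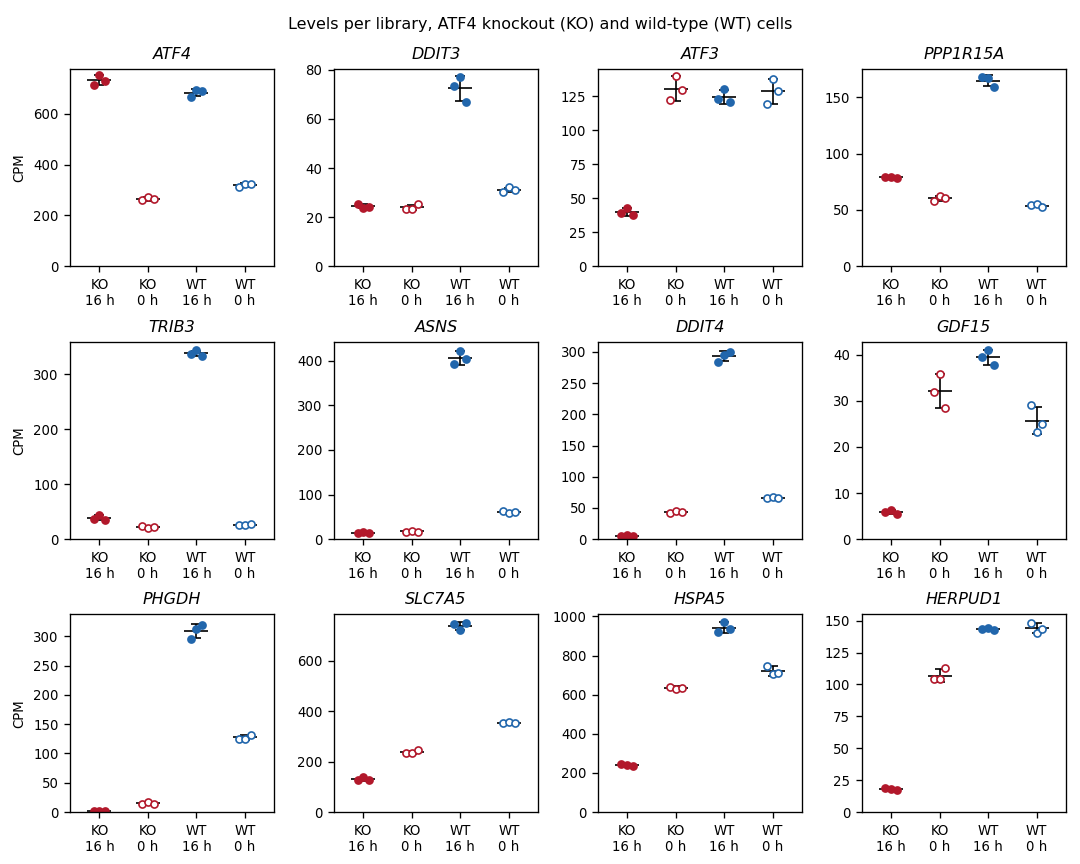
Levels (CPM) of 12 genes of the stress response in each library of ATF4 knockout (KO) and wild-type (WT) cells at 16 h with dimerizer (filled) and at 0 h (open), with the mean and SD of 3 libraries. DDIT4, PHGDH and SLC7A5 are lower at 16 h than at 0 h in knockout cells and higher at 16 h than at 0 h in WT cells.

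ATF4 with a C/EBP partner is known to bind C/EBP-ATF response elements, whose core is close to TGATGNAA. In the 250 bases before the RefSeq start of each gene (GRCh38.p14), these letters were found on either strand in 1061 of 27305 genes (3.89%). They were found in 6 of the 23 stress response genes with an entry (26.1%), namely ASNS, ATF3, CEBPG, CHAC1, FGF21 and JDP2. Of the cytosolic tRNA synthetases 3 of 16 held them (18.8%), of the amino acid enzymes 3 of 18 (16.7%) and of the amino acid transporters 2 of 18 (11.1%). The windows below show a gene with little change (ASNS), the factor that rose most (CEBPG) and a transporter that rose (SLC1A5), all with the element on the strand of the gene, in capitals and 68, 42 and 97 bases before the start. The windows are chr7:97872409-97872658 on the minus strand, chr19:33373863-33374112 on the plus strand and chr19:46784815-46785064 on the minus strand.
ASNS: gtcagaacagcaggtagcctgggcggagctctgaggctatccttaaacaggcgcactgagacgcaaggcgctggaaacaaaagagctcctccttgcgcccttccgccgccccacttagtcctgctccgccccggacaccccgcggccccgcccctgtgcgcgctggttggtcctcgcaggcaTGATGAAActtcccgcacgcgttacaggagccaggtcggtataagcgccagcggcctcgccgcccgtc
CEBPG: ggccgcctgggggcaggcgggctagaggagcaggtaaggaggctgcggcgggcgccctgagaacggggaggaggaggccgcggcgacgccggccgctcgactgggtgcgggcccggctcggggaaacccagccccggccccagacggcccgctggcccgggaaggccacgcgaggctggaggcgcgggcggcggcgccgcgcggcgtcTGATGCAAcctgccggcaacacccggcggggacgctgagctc
SLC1A5: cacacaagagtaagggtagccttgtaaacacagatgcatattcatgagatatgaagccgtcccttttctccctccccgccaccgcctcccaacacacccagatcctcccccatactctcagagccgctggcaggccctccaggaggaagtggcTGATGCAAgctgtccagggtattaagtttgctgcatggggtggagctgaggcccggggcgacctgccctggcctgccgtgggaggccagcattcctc
The element thus stood before genes that rose, before genes that fell and before genes that did not pass the test. A match is a description of the letters, not of binding.

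The machinery around eIF2 rose. Of 18 kinases, phosphatases and subunits around eIF2, 13 rose and 2 fell, with a median log2 fold change of 0.35. EIF2B3, a subunit of the exchange factor eIF2B that phosphorylated eIF2α blocks, had 80.3, 77.3 and 78.4 CPM at 16 h, against 21.6, 19.7 and 19.9 CPM at 0 h (log2 fold change 1.96 ± 0.072 (SE), adjusted p = 9.2e-26). EIF2B5, the catalytic subunit of eIF2B, had 108, 114 and 112 CPM at 16 h, against 70.2, 64.3 and 65.9 CPM at 0 h (log2 fold change 0.74 ± 0.045 (SE), adjusted p = 2.1e-18). EIF2S1, which encodes eIF2α itself, had 451, 443 and 425 CPM at 16 h, against 243, 233 and 233 CPM at 0 h (log2 fold change 0.90 ± 0.034 (SE), adjusted p = 2.0e-25), and EIF2S2, the β subunit, rose by a log2 fold change of 0.71 ± 0.039. The 2 that fell were PPP1R15B, the constitutive partner of the eIF2α phosphatase, at -0.42 ± 0.042, and EIF2AK2, the kinase PKR, at -0.18 ± 0.046.

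Enzymes of amino acid, folate and nucleotide synthesis mostly rose, with exceptions such as PHGDH. Of 26 enzymes of serine, folate-linked carbon and amino acid metabolism, 17 rose and 5 fell, with a median of 0.5. MTHFD2, the mitochondrial methylene-tetrahydrofolate dehydrogenase, had 170.1, 172 and 173 CPM at 16 h, against 75.9, 64.8 and 65.1 CPM at 0 h (log2 fold change 1.33 ± 0.051 (SE), adjusted p = 3.6e-25). Its cytosolic relative MTHFD1 rose by a log2 fold change of 1.27 ± 0.037, and the proline enzyme PYCR1 by 1.27 ± 0.04. ODC1, ornithine decarboxylase, had 548, 557 and 550.4 CPM at 16 h, against 236, 219 and 206 CPM at 0 h (log2 fold change 1.33 ± 0.038 (SE), adjusted p = 1.6e-29). PHGDH, which makes the first step of serine synthesis, had 2.43, 2.46 and 2.4 CPM at 16 h, against 14.1, 16.8 and 14.2 CPM at 0 h (log2 fold change -2.62 ± 0.15 (SE), adjusted p = 3.7e-19). The PHGDH libraries of the 2 times were far apart and tight within each time. GLUL, glutamine synthetase, had 9.11, 9.03 and 8.69 CPM at 16 h, against 40.1, 42.4 and 44.5 CPM at 0 h (log2 fold change -2.24 ± 0.11 (SE), adjusted p = 6.4e-22), and OAT, ornithine aminotransferase, fell, with a log2 fold change of -1.15 ± 0.044. Of 18 purine and pyrimidine enzymes, 17 rose and 1 fell, with a median of 0.84. The purine enzymes PAICS (1.24 ± 0.032), ADSL (1.25 ± 0.034) and ATIC (1.36 ± 0.044) and the pyrimidine enzyme CAD (1.33 ± 0.044) each more than doubled. The exception was CTPS2, a CTP synthase, with 4.79, 4.34 and 4.46 CPM at 16 h, against 13, 14.2 and 14.4 CPM at 0 h (log2 fold change -1.61 ± 0.13 (SE), adjusted p = 8.9e-15).

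Amino acid transporters went the other way. Of 21 tested transporters 4 rose and 11 fell, with a median of -0.35. SLC7A5, the leucine transporter of system L, had 128, 137 and 125 CPM at 16 h, against 233, 234 and 245 CPM at 0 h (log2 fold change -0.87 ± 0.049 (SE), adjusted p = 2.0e-19). SLC38A2, a glutamine and alanine transporter known to respond to amino acid shortage, had 279.8, 261 and 265 CPM at 16 h, against 607, 692 and 710.1 CPM at 0 h (log2 fold change -1.32 ± 0.047 (SE), adjusted p = 4.3e-26), and SLC1A3, a glutamate transporter, fell, with a log2 fold change of -1.34 ± 0.099. The taurine transporter SLC6A6 fell, at -0.72 ± 0.068. SLC7A2, a transporter of cationic amino acids, had 71.6, 69.4 and 74.6 CPM at 16 h, against 19.4, 18.1 and 17.8 CPM at 0 h (log2 fold change 1.97 ± 0.069 (SE), adjusted p = 1.8e-26), the largest rise among the transporters called. SLC1A5, a glutamine transporter, had 117, 109 and 112 CPM at 16 h, against 59.9, 56.1 and 53.6 CPM at 0 h (log2 fold change 1.01 ± 0.053 (SE), adjusted p = 1.4e-20), and SLC38A1, another glutamine carrier, rose by 0.68 ± 0.069. The synthetases that charge tRNA rose in the cytosol (18 of 20, 2 lower, median 0.7) and in mitochondria (14 of 17, none lower, median 0.43). TARS, which charges threonine tRNA, had 310.0, 303 and 292 CPM at 16 h, against 153, 153 and 151 CPM at 0 h (log2 fold change 0.99 ± 0.029 (SE), adjusted p = 5.2e-29). CARS, the cysteine enzyme, was 1 of the 2 that fell, with 34.2, 30.7 and 30.6 CPM at 16 h, against 38, 35.7 and 37.6 CPM at 0 h (log2 fold change -0.21 ± 0.065 (SE), adjusted p = 0.0052). NARS2, the asparagine enzyme of mitochondria, rose by a log2 fold change of 0.89 ± 0.052.

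Genes for protein folding in the ER fell. Of 28 ER chaperones and folding enzymes 4 rose and 18 fell, with a median of -0.42, of 23 factors of ER-associated degradation 7 rose and 12 fell (median -0.18), and of 11 ER stress sensors and transcription factors none rose and 9 fell (median -0.25). HSPA5, the ER chaperone BiP (GRCh38 chr9:125234853-125241330, minus strand), had 245, 239.6 and 238 CPM at 16 h, against 642, 629.6 and 637 CPM at 0 h (log2 fold change -1.40 ± 0.032 (SE), adjusted p = 6.8e-33). HSP90B1, the ER chaperone GRP94, had 358, 344 and 352 CPM at 16 h, against 747, 752 and 747 CPM at 0 h (log2 fold change -1.09 ± 0.025 (SE), adjusted p = 8.3e-33). The 3 treated libraries lay within a narrow band for both. PDIA4, a disulfide isomerase, fell, with a log2 fold change of -1.13 ± 0.041, and CALR, a lectin chaperone, at -0.64 ± 0.026. HERPUD1, a membrane protein of ER-associated degradation, had 18.5, 18.2 and 17.6 CPM at 16 h, against 104, 104 and 113 CPM at 0 h (log2 fold change -2.56 ± 0.058 (SE), adjusted p = 8.3e-33). EDEM1 and ERLEC1, lectins that send misfolded glycoproteins to degradation, fell, at -0.98 ± 0.05 and -0.94 ± 0.047, and VCP, the ATPase that extracts them, at -0.54 ± 0.025. XBP1, the factor of the IRE1 arm, had 61.5, 69.9 and 61.3 CPM at 16 h, against 87.3, 95 and 94.6 CPM at 0 h (log2 fold change -0.54 ± 0.057 (SE), adjusted p = 5.0e-11). The sensor ATF6B fell, at -0.98 ± 0.055, its relative CREB3L2 at -1.15 ± 0.076 and MBTPS1, the protease that activates ATF6, at -0.66 ± 0.032. Among the members that rose were TXNDC5, a thioredoxin-like folding enzyme (0.46 ± 0.028), CNPY2 (0.54 ± 0.058) and AUP1, a lipid droplet protein that recruits ubiquitin enzymes (0.94 ± 0.041). The translocation and export machinery was divided, with 19 of 43 higher and 20 lower. There the receptor KDELR3, which returns ER proteins from the Golgi, fell to 15 ± 1.04 CPM at 16 h, against 52.4 ± 1.59 CPM at 0 h, while the signal recognition particle proteins SRP72 and SRP68 rose by 0.93 ± 0.028 and 0.64 ± 0.034.

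The ER stress response element, CCAAT and CCACG with any 9 bases between them, is the site known to be bound by ATF6 with NF-Y. It was found, on either strand of the same 250 bases, in 25 of 27305 genes (0.0916%). It stood before 7 of 26 ER chaperone genes with an entry (26.9%), before XBP1 alone of 11 sensors and factors (9.09%) and before 0 of 20 degradation genes. Of the 7 chaperone genes, HSPA5, HSP90B1, PDIA6, CALR, CRELD2 and ERO1B fell and CANX rose, by a log2 fold change of 0.10 ± 0.026 (adjusted p = 8.2e-04). The windows of HSPA5 (chr9:125241344-125241593, minus strand), HSP90B1 (chr12:103930160-103930409, plus strand, with an element on each strand) and XBP1 (chr22:28800570-28800819, minus strand) are shown since these genes fell in every treated library, with the element in capitals.
HSPA5: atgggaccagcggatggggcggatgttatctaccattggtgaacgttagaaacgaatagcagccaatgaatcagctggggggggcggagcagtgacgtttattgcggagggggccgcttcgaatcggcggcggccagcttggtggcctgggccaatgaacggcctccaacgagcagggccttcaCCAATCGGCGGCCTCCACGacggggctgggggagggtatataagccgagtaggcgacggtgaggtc
HSP90B1: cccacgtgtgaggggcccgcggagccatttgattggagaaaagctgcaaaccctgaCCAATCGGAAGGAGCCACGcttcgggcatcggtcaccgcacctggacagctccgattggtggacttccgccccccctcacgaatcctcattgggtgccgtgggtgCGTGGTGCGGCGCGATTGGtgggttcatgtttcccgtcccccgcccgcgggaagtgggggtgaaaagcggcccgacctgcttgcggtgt
XBP1: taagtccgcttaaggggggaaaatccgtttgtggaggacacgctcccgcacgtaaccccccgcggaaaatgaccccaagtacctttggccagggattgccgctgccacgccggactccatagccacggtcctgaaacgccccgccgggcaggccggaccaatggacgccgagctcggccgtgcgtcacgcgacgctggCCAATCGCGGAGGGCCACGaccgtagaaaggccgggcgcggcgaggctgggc
The element begins 66 bases before the start in HSPA5 and 52 bases before it in XBP1. The letters of the ER element, the ATF4 element and the E2F sites given further on do not contain one another.

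Most ribosome production and translation genes rose. All 51 ribosome biogenesis genes rose, by log2 fold changes of 0.39 to 1.9 and with a median of 1.1, and 32 of them at least doubled. UTP4, a nucleolar factor of the small subunit, had 284, 277 and 262 CPM at 16 h, against 79.5, 79.3 and 82.3 CPM at 0 h (log2 fold change 1.77 ± 0.036 (SE), adjusted p = 2.1e-34). EBNA1BP2, a factor of the large subunit, had 380.0, 401 and 380.2 CPM at 16 h, against 123, 114 and 110.1 CPM at 0 h (log2 fold change 1.75 ± 0.037 (SE), adjusted p = 6.4e-34), and BOP1, which acts in the same pathway, rose by 1.66 ± 0.042. DKC1, the pseudouridine synthase of box H/ACA particles, had 386, 371 and 378 CPM at 16 h, against 127, 123 and 121 CPM at 0 h (log2 fold change 1.62 ± 0.039 (SE), adjusted p = 5.9e-32). The treated and untreated libraries of these genes stood far apart, with little spread within either group. Of 78 cytosolic ribosomal protein genes 68 rose and 4 fell, by less (median 0.26). RPL8, the member with the largest rise, had 2306, 2348 and 2282 CPM at 16 h, against 1375, 1362 and 1357 CPM at 0 h (log2 fold change 0.76 ± 0.024 (SE), adjusted p = 8.9e-28), and RPL12 rose by 0.59 ± 0.029. RPL7A went against the others, with 724, 696 and 709 CPM at 16 h, against 1003, 1005 and 996 CPM at 0 h (log2 fold change -0.50 ± 0.025 (SE), adjusted p = 4.5e-21). The falls of RPL23A (-0.091 ± 0.037), RPS25 (-0.083 ± 0.034) and RPL23 (-0.061 ± 0.028, named after its value was seen) were small. Those of RPL23A and RPS25 were each lost in 5 of the 6 fits that left out 1 library, with an adjusted p of up to 0.221 for RPL23A (without 16 h replicate 3) and 0.159 for RPS25 (without 0 h replicate 1). In each of these 6 fits only 1 to 2 of the 4 falls were called, and that of RPL23 was called in none. Many ribosomal protein genes have processed pseudogenes, so their counts are uncertain to that extent.

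Of 39 translation factors 31 rose and 7 fell, with a median of 0.56. EIF3B and EIF3I, subunits of the eIF3 scaffold, had log2 fold changes of 1.11 ± 0.026 and 1.12 ± 0.03, and GSPT1, the release factor eRF3, 1.04 ± 0.03. EIF4EBP2, an inhibitor of the cap-binding protein eIF4E, had 57, 53 and 52.3 CPM at 16 h, against 109.7, 108 and 106 CPM at 0 h (log2 fold change -0.98 ± 0.049 (SE), adjusted p = 2.1e-21), and EIF5A2 fell, at -0.71 ± 0.081. Of 15 factors of nonsense-mediated decay, the surveillance that removes mRNAs with early stop codons, 14 rose (median 0.72). SMG5, which acts after the helicase UPF1, rose by 0.94 ± 0.032, and the kinase SMG1 by 0.82 ± 0.036. SMG8, the single member that fell, had a log2 fold change of -0.17 ± 0.074, and this call was lost with DESeq2 (adjusted p = 0.0749), with the replicate number as a block (0.0537), without a filter on low counts (0.122) and without 0 h replicate 1 (0.0507), 0 h replicate 3 (0.368) or 16 h replicate 2 (0.282). Of 20 host genes of small nucleolar RNAs 17 rose and 2 fell (median 0.98). Spliced RNAs of many such genes are known substrates of nonsense-mediated decay. ZFAS1 had 270.3, 272 and 274 CPM at 16 h, against 49.6, 46.5 and 47.6 CPM at 0 h (log2 fold change 2.51 ± 0.052 (SE), adjusted p = 3.2e-34). GAS5 had 507, 499 and 486 CPM at 16 h, against 105, 102 and 113 CPM at 0 h (log2 fold change 2.22 ± 0.046 (SE), adjusted p = 3.0e-34), and SNHG1 and SNHG5 rose by 2.01 ± 0.053 and 2.51 ± 0.067. SNHG14 fell, at -0.76 ± 0.065, as did TUG1, a long noncoding RNA of this list that is not known as a host gene, at -0.32 ± 0.028.

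**Figure D2:**
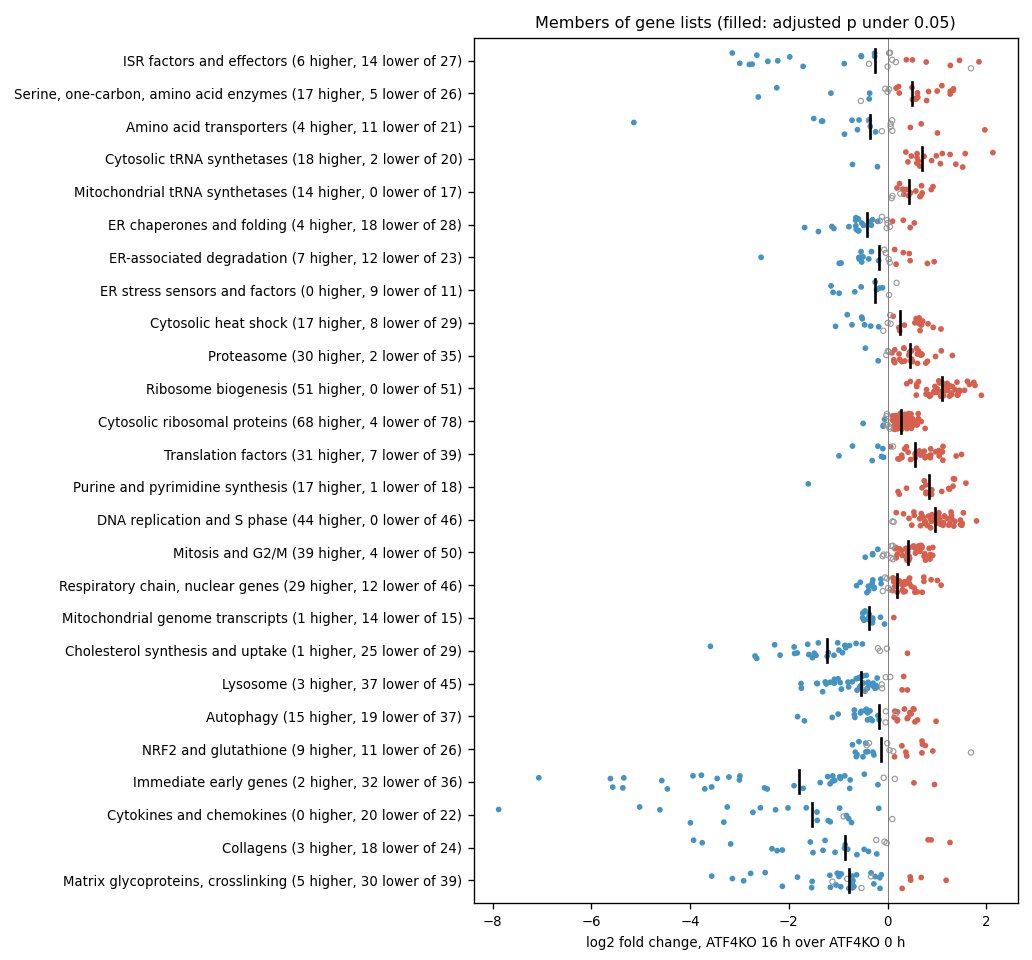
Log2 fold change of each tested member of 26 gene lists, ATF4 knockout at 16 h over 0 h (filled red, rose; filled blue, fell; open, not called at an adjusted p under 0.05), with the list median as a black bar. All 51 ribosome biogenesis genes lie right of 0, while 32 of 36 immediate early genes fell; fitted values of genes with 3 or fewer counts in a group, such as TNF, are no bounds.

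Cell cycle genes rose. Of 46 genes of DNA replication and S phase 44 rose and none fell, with a median of 0.97, and of 50 mitotic genes 39 rose and 4 fell, with a median of 0.42. CDC6, which loads the replicative helicase, had 138, 134 and 130.0 CPM at 16 h, against 53.5, 44.7 and 44.7 CPM at 0 h (log2 fold change 1.51 ± 0.057 (SE), adjusted p = 2.5e-25). UHRF1, which guides DNA methylation to newly made strands, had 159, 161 and 155 CPM at 16 h, against 70.8, 59.3 and 56.7 CPM at 0 h (log2 fold change 1.36 ± 0.051 (SE), adjusted p = 1.3e-25), and its partner DNMT1 rose by a log2 fold change of 0.99 ± 0.035. POLD2, a subunit of polymerase δ, rose by 1.03 ± 0.033. Among mitotic genes CDC20, the activator of the anaphase-promoting complex, had 272, 286 and 281 CPM at 16 h, against 155, 148 and 142 CPM at 0 h (log2 fold change 0.92 ± 0.038 (SE), adjusted p = 7.8e-24), and the spindle protein TPX2 had 318, 325 and 314 CPM at 16 h, against 195, 189 and 179 CPM at 0 h (log2 fold change 0.77 ± 0.042 (SE), adjusted p = 7.1e-20). KIF20A, a kinesin of cell division, went down, with 46.5, 42.9 and 50.4 CPM at 16 h, against 61.9, 71.7 and 58.5 CPM at 0 h (log2 fold change -0.45 ± 0.075 (SE), adjusted p = 1.1e-06), as did DLGAP5 (-0.30 ± 0.056) and SPC25 (-0.30 ± 0.056). Of 14 cell cycle inhibitors, D cyclins and their kinases 4 rose and 7 fell. CDKN2B, the inhibitor p15, had 7.49, 6.22 and 5.83 CPM at 16 h, against 32.7, 36 and 36.3 CPM at 0 h (log2 fold change -2.39 ± 0.097 (SE), adjusted p = 2.8e-24). CDKN1C, the inhibitor p57, had 2.03, 2.11 and 3.89 CPM at 16 h, against 22.4, 25.1 and 22.4 CPM at 0 h (log2 fold change -3.18 ± 0.16 (SE), adjusted p = 4.6e-21), and CDKN1A, the inhibitor p21, fell, at -0.53 ± 0.044. CDKN1B, the inhibitor p27, rose by 0.63 ± 0.066, and CDK4 by 0.59 ± 0.032. Of 12 tested histone genes 6 fell and none rose, among them HIST1H1C, with 3.65, 4.81 and 5.6 CPM at 16 h, against 14.4, 12.7 and 14 CPM at 0 h (log2 fold change -1.60 ± 0.17 (SE), adjusted p = 7.0e-11). Most histone mRNAs lack a poly(A) tail, and their near-identical copies make their counts uncertain.

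E2F factors are known to drive replication genes through sites such as TTTCCCGC and TTTGGCGC. On either strand of the 250 bases before the start, at least 1 of these was found in 645 of 27305 genes (2.36%) and in 14 of 39 replication genes with an entry (35.9%). UHRF1 is shown as the replication gene with the smallest adjusted p among those with a site, by its last 100 bases before the start (chr19:4909401-4909500, plus strand). The site, in capitals, lies on the other strand and begins 14 bases before the start.
UHRF1: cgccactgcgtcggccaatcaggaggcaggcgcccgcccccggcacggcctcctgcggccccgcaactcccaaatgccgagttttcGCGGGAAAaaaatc

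Protein quality control outside the ER rose. Of 35 proteasome genes 30 rose and 2 fell, with a median of 0.45. PSMD2, a subunit of the regulatory particle, was among the most abundant genes that at least doubled, with 1019, 1020.5 and 996 CPM at 16 h, against 426, 400.4 and 397 CPM at 0 h (log2 fold change 1.31 ± 0.027 (SE), adjusted p = 4.0e-34). The activator subunit PSME3 rose by a log2 fold change of 1.09 ± 0.03 and the deubiquitinase PSMD14 by 0.97 ± 0.037, while PSME1, an interferon-inducible activator, fell, at -0.45 ± 0.047. Of 29 cytosolic chaperones and heat shock factors 17 rose and 8 fell. The members that rose most clearly were subunits of the chaperonin CCT, with 786, 791 and 756 CPM at 16 h, against 389, 359 and 356 CPM at 0 h for CCT6A (log2 fold change 1.08 ± 0.029 (SE), adjusted p = 1.7e-30) and log2 fold changes of 0.92 ± 0.03 for CCT7 and 0.82 ± 0.03 for CCT3. The small heat shock protein HSPB1 had 325, 328 and 333 CPM at 16 h, against 662, 716 and 668 CPM at 0 h (log2 fold change -1.05 ± 0.035 (SE), adjusted p = 3.0e-27). Of 22 mitochondrial chaperones, proteases and import genes 18 rose and 2 fell, with a median of 0.71. The fall of PMPCB, a subunit of the peptidase that removes import signals, was 1 of the 2 (-0.11 ± 0.044), and it was lost without a filter on low counts (adjusted p = 0.127) and in 5 of the 6 fits that left out 1 library, all but that without 16 h replicate 3 (adjusted p = 0.0501 to 0.103). TOMM40, the import pore of the outer membrane, had 167, 178 and 176 CPM at 16 h, against 57.2, 59.6 and 58.5 CPM at 0 h (log2 fold change 1.57 ± 0.046 (SE), adjusted p = 4.0e-29), and the mitochondrial HSP90 relative TRAP1 had 226, 238 and 233 CPM at 16 h, against 90.0, 86.3 and 83.5 CPM at 0 h (log2 fold change 1.43 ± 0.041 (SE), adjusted p = 1.6e-29). HSPA9 and HSPD1, the main matrix chaperones, rose by 0.92 ± 0.029 and 0.74 ± 0.029.

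Nuclear and mitochondrial genes of respiration moved apart. Of 46 nuclear genes of the respiratory chain 29 rose and 12 fell, with a median of 0.19, whereas of 15 transcripts of the mitochondrial genome 1 rose and 14 fell, with a median of -0.37. CYCS, cytochrome c, had 524, 520.4 and 499.8 CPM at 16 h, against 241, 245 and 243 CPM at 0 h (log2 fold change 1.08 ± 0.033 (SE), adjusted p = 1.5e-28), and CYC1, a cytochrome of complex III, rose by a log2 fold change of 1.01 ± 0.035. UQCRB and SDHC fell, at -0.55 ± 0.049 and -0.42 ± 0.037. MT-CO1, a core subunit of complex IV, had 10981, 10637 and 10795 CPM at 16 h, against 15210.3, 15474 and 15314 CPM at 0 h (log2 fold change -0.50 ± 0.019 (SE), adjusted p = 3.5e-25). The ribosomal RNA MT-RNR2 fell, at -0.48 ± 0.021, and MT-ND2 was the transcript that rose, by 0.13 ± 0.025. Glycolysis and the pentose phosphate pathway were divided, with 19 of 32 genes higher and 12 lower. ENO1, enolase, had 2674, 2682 and 2603 CPM at 16 h, against 1461, 1393 and 1334 CPM at 0 h (log2 fold change 0.93 ± 0.024 (SE), adjusted p = 6.5e-31), and TPI1, ALDOA and the pentose phosphate enzyme RPIA rose by 0.68 ± 0.025, 0.65 ± 0.025 and 1.26 ± 0.062. The glucose transporters SLC2A1 and SLC2A3 fell, at -0.64 ± 0.037 and -1.17 ± 0.082, and ALDOC, another aldolase, fell to 2.33 ± 0.907 CPM at 16 h, against 18 ± 2.13 CPM at 0 h.

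Cholesterol genes fell together. Among 29 cholesterol synthesis and uptake genes, 25 were lower and 1 higher, with a median of -1.22, and 18 fell at least 2-fold. STARD4, a sterol carrier, had 23.8, 24.9 and 24.1 CPM at 16 h, against 148, 156 and 152 CPM at 0 h (log2 fold change -2.65 ± 0.06 (SE), adjusted p = 7.4e-33). SREBF2, which encodes the factor known to activate these genes, had 215, 205 and 201 CPM at 16 h, against 479, 493 and 483 CPM at 0 h (log2 fold change -1.22 ± 0.03 (SE), adjusted p = 1.0e-31). SCAP, the escort of SREBP proteins, was the member that rose, by a log2 fold change of 0.40 ± 0.045. Fatty acid and lipid genes were divided, with 9 of 29 higher and 14 lower. FADS2, a desaturase, had 51.1, 53 and 57.9 CPM at 16 h, against 283, 294 and 289 CPM at 0 h (log2 fold change -2.43 ± 0.05 (SE), adjusted p = 3.2e-34), and the desaturase SCD fell, at -1.24 ± 0.032. PLIN2, a coat protein of lipid droplets, had 50.4, 52.1 and 50.9 CPM at 16 h, against 19.6, 20.2 and 18.5 CPM at 0 h (log2 fold change 1.40 ± 0.065 (SE), adjusted p = 2.2e-22).

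Of 45 lysosomal genes 37 fell and 3 rose, with a median of -0.54. GRN, progranulin, had 128, 129 and 121 CPM at 16 h, against 325, 345 and 351 CPM at 0 h (log2 fold change -1.43 ± 0.033 (SE), adjusted p = 9.2e-33), and NPC2, which moves cholesterol out of lysosomes, had 82.7, 82.8 and 80.3 CPM at 16 h, against 223, 220.3 and 216 CPM at 0 h (log2 fold change -1.42 ± 0.035 (SE), adjusted p = 8.0e-32). TPP1 and SCARB2, a protease and a membrane protein of lysosomes, fell, with log2 fold changes of -1.24 ± 0.041 and -1.0 ± 0.033, and CTSC, a cathepsin, rose by 0.33 ± 0.05. Autophagy genes were divided, with 15 of 37 higher and 19 lower. SQSTM1, the receptor p62, had 218, 229.7 and 221 CPM at 16 h, against 342, 359.5 and 361 CPM at 0 h (log2 fold change -0.67 ± 0.03 (SE), adjusted p = 6.5e-23), and WIPI1, which acts at the forming membrane, fell, at -1.82 ± 0.098. ATG3, a conjugating enzyme for LC3, rose by 0.98 ± 0.055. Of 26 genes of the NRF2 and glutathione system 9 rose and 11 fell. NFE2L2, which encodes NRF2, had 87.7, 85.5 and 82.6 CPM at 16 h, against 133, 143 and 144 CPM at 0 h (log2 fold change -0.71 ± 0.046 (SE), adjusted p = 1.5e-17), and the ferritin genes FTH1 and FTL fell, at -0.50 ± 0.027 and -0.63 ± 0.03. TXN, thioredoxin, and GSS, glutathione synthetase, rose by 0.70 ± 0.054 and 0.77 ± 0.046. Among 19 genes around mTORC1, 8 rose and 7 fell, and SESN3, a sestrin, had 22.2, 21 and 23.4 CPM at 16 h, against 106, 112 and 119 CPM at 0 h (log2 fold change -2.34 ± 0.084 (SE), adjusted p = 4.6e-26), while MTOR rose by 0.50 ± 0.039. TXNIP, which restrains thioredoxin and glucose uptake, and its relative ARRDC4 rose by 1.34 ± 0.11 and 2.28 ± 0.15.

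Genes of acute growth and inflammatory signalling fell. Of 36 tested immediate early genes 32 fell and 2 rose, with a median of -1.80, and 25 fell at least 2-fold. EGR2, a zinc finger factor, had 0.54, 0.235 and 0.343 CPM at 16 h, against 51.2, 61 and 54.4 CPM at 0 h (log2 fold change -7.06 ± 0.25 (SE), adjusted p = 2.0e-26). NR4A1, an orphan nuclear receptor, had 16.8, 18.3 and 17.7 CPM at 16 h, against 634, 733 and 756 CPM at 0 h (log2 fold change -5.34 ± 0.10 (SE), adjusted p = 2.9e-35), and its relatives NR4A2 and NR4A3 fell, with log2 fold changes of -5.61 ± 0.14 and -5.57 ± 0.17. JUNB, a subunit of AP-1, had 55.3, 53.2 and 49.5 CPM at 16 h, against 407, 432 and 425 CPM at 0 h (log2 fold change -2.99 ± 0.047 (SE), adjusted p = 2.6e-38). For none of these did a treated library come near an untreated one. IER3 fell, at -3.21 ± 0.053 and CTGF, a matrix protein of this list and of the YAP targets, at -3.56 ± 0.061. MYC was 1 of the 2 that rose, with 299, 308 and 277 CPM at 16 h, against 156, 151 and 151 CPM at 0 h (log2 fold change 0.95 ± 0.044 (SE), adjusted p = 3.1e-22), and KLF2 was the other, by 0.53 ± 0.092. Of 22 tested cytokines and chemokines 20 fell and none rose, with a median of -1.54. CXCL14, a chemokine, had 0.27, 0.235 and 0.686 CPM at 16 h, against 80.8, 94.5 and 94.8 CPM at 0 h (log2 fold change -7.88 ± 0.20 (SE), adjusted p = 6.2e-31). LIF, a cytokine of the IL-6 family, had 117, 121 and 116 CPM at 16 h, against 311, 312 and 327 CPM at 0 h (log2 fold change -1.42 ± 0.042 (SE), adjusted p = 4.8e-29), and IL18 and TGFB2 fell, at -1.16 ± 0.031 and -0.97 ± 0.043. TNF had 3 counts over the 16 h libraries and 122 over the 0 h libraries, a ratio per library size of 35.9 in favour of 0 h (exact 95% interval 12 to 176, counting error only).

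NF-κB regulators were divided, with 11 of 25 higher and 13 lower. TNFAIP3, the inhibitor A20, had 15.5, 18.2 and 13.9 CPM at 16 h, against 103, 93.4 and 86.1 CPM at 0 h (log2 fold change -2.57 ± 0.13 (SE), adjusted p = 2.0e-21), and NFKBIZ fell, with a log2 fold change of -2.13 ± 0.078, whereas TNIP2, NFKBIB and TRAF2 rose by 1.08 ± 0.059, 1.07 ± 0.065 and 0.91 ± 0.065. Of 33 genes of interferon response and antigen presentation 24 fell and 5 rose, with a median of -0.61. TAPBP, which loads peptides onto MHC class I, fell, at -1.02 ± 0.045, STAT3 at -0.64 ± 0.032 and IFI6, an interferon-induced gene, at -1.64 ± 0.10. The peptide transporter subunit TAP2 went the other way, with 88.8, 97 and 91.8 CPM at 16 h, against 42.4, 43.5 and 43.2 CPM at 0 h (log2 fold change 1.10 ± 0.071 (SE), adjusted p = 2.2e-17).

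Genes of the matrix and of cell contact fell. Of 24 collagens 18 fell and 3 rose (median -0.87), of 39 matrix glycoproteins and crosslinking enzymes 30 fell and 5 rose (median -0.78), and of 30 matrix proteases and inhibitors 20 fell and 6 rose (median -0.61). COL1A1, the main bone collagen, had 586, 569 and 559 CPM at 16 h, against 1385, 1389 and 1469 CPM at 0 h (log2 fold change -1.31 ± 0.036 (SE), adjusted p = 3.0e-30), and the fibril collagens COL5A1 and COL11A1 fell, with log2 fold changes of -1.51 ± 0.043 and -3.18 ± 0.12. THBS1, thrombospondin 1, had 189, 168 and 173 CPM at 16 h, against 1346, 1277 and 1393 CPM at 0 h (log2 fold change -2.92 ± 0.049 (SE), adjusted p = 2.9e-37). SPARC, a bone matrix protein, fell, at -0.78 ± 0.022 and LOXL1, a crosslinking oxidase, at -1.83 ± 0.049. COL6A3, COL27A1 and the minor fibril collagen COL5A3 rose by 0.88 ± 0.079, 0.82 ± 0.067 and 1.26 ± 0.12, and TNC, tenascin C, had 199.6, 202 and 199 CPM at 16 h, against 91.9, 86 and 86.7 CPM at 0 h (log2 fold change 1.19 ± 0.039 (SE), adjusted p = 1.7e-27). TIMP2, an inhibitor of metalloproteases, had 71.5, 64.5 and 68.6 CPM at 16 h, against 498, 522 and 518 CPM at 0 h (log2 fold change -2.90 ± 0.037 (SE), adjusted p = 3.2e-41). Its partners MMP2 and MMP14 fell, at -1.68 ± 0.033 and -1.71 ± 0.046. MMP9, a gelatinase (GRCh38 chr20:46008908-46016561, plus strand), went up, with 74.7, 63.1 and 67.5 CPM at 16 h, against 9.04, 5.87 and 6.01 CPM at 0 h (log2 fold change 3.34 ± 0.15 (SE), adjusted p = 7.4e-23). The lowest MMP9 library at 16 h stood several-fold above the highest at 0 h.

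Of 25 integrins, cadherins and catenins 17 fell and 4 rose (median -0.38), and of 21 YAP and TEAD genes 14 fell and 4 rose (median -0.56). ITGB8 had 6.89, 7.04 and 6.86 CPM at 16 h, against 80.3, 69.1 and 74.9 CPM at 0 h (log2 fold change -3.43 ± 0.087 (SE), adjusted p = 3.2e-31), and ITGB1, the most common β chain, fell, with a log2 fold change of -0.54 ± 0.023. The laminin receptor ITGA6 rose by 0.94 ± 0.04. CYR61, a YAP target, had 855, 828 and 792 CPM at 16 h, against 1594, 1631 and 1622 CPM at 0 h (log2 fold change -0.97 ± 0.036 (SE), adjusted p = 9.7e-26), while the factor TEAD4 rose by 1.10 ± 0.049. Of 30 genes of TGF-β and BMP signalling 18 fell and 6 rose (median -0.42), with INHBA, an activin subunit, at -1.25 ± 0.061 and its antagonist FST at -1.85 ± 0.067. Of 36 guidance genes 24 fell and 6 rose (median -0.69), and the semaphorin SEMA3F had 16.3, 18.4 and 16.8 CPM at 16 h, against 75.4, 76.6 and 73.8 CPM at 0 h (log2 fold change -2.14 ± 0.067 (SE), adjusted p = 3.4e-28). Among 33 ion channels 19 fell and 8 rose (median -0.61). KCNA1, a potassium channel, had 0.135, 0 and 0.457 CPM at 16 h, against 42.9, 50.9 and 53.6 CPM at 0 h (log2 fold change -7.97 ± 0.26 (SE), adjusted p = 2.6e-27), and KCNH2, another, fell, at -3.12 ± 0.15. KCNQ5, a channel of the M current, had 71.2, 74.9 and 74.4 CPM at 16 h, against 14, 12.1 and 13.1 CPM at 0 h (log2 fold change 2.49 ± 0.082 (SE), adjusted p = 2.3e-27), and its partner KCNQ3 rose by 1.68 ± 0.084. Among the markers of cell type, 2 of the 9 mesenchymal and bone markers rose and 6 fell, while of the 12 markers of other cells 2 rose (CD68 and SYP) and 8 fell.

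Genes of cell death were divided. Of 19 BCL2 family genes 9 rose and 6 fell, and of 16 death receptors and regulators 3 rose and 7 fell, with medians of 0.087 and -0.19. BMF, a pro-death BH3 protein, had 0.54, 0.235 and 0.686 CPM at 16 h, against 11.5, 11.5 and 12.4 CPM at 0 h (log2 fold change -4.54 ± 0.25 (SE), adjusted p = 5.7e-20). MCL1, a short-lived survival protein, had 312, 328 and 302 CPM at 16 h, against 604, 612 and 609.9 CPM at 0 h (log2 fold change -0.96 ± 0.028 (SE), adjusted p = 6.4e-29). BID, the BH3 protein that caspase-8 cleaves, had 23, 19.9 and 22.6 CPM at 16 h, against 5.4, 6.85 and 5.82 CPM at 0 h (log2 fold change 1.87 ± 0.11 (SE), adjusted p = 2.0e-19), and BAD rose by a log2 fold change of 0.79 ± 0.062. BCL2A1, a survival gene, had 69 counts over the 16 h libraries and 3 over the 0 h libraries, a ratio of 26.1 (exact 95% interval 8.55 to 129). TNFRSF10B, the death receptor DR5, had 120.4, 116 and 110.3 CPM at 16 h, against 139, 135 and 136 CPM at 0 h (log2 fold change -0.24 ± 0.041 (SE), adjusted p = 2.7e-06). CASP8 and its adaptor FADD rose by 0.35 ± 0.053 and 0.74 ± 0.076, and CFLAR, which blocks caspase-8, fell, at -0.47 ± 0.048. Of 26 tested genes of p53 and its targets 7 rose and 11 fell, with a median of -0.0098. At the ends of this list, BTG2, an antiproliferative factor, fell, at -1.89 ± 0.067, while the nuclease AEN rose by 0.86 ± 0.033.

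Single called genes were ranked if they averaged 1 CPM or more and had more than 3 counts in each group. They also had no overlap between the groups and a symbol of their own. Among them, the largest rises included genes that were low or almost silent at 0 h. INSC, an adaptor of spindle orientation, had 2.03, 1.64 and 3.77 CPM at 16 h, against 0.104, 0.178 and 0.129 CPM at 0 h (log2 fold change 4.04 ± 0.44 (SE), adjusted p = 1.1e-10), the largest of these rises. CD68, best known as a lysosomal protein of macrophages, had 9.79, 10.2 and 9.37 CPM at 16 h, against 0.52, 1.07 and 0.711 CPM at 0 h (log2 fold change 3.65 ± 0.26 (SE), adjusted p = 3.4e-16). IGFN1 and the kinase gene CDKL1 rose by log2 fold changes of 3.63 ± 0.34 and 3.01 ± 0.13. ESM1, endocan, had 20.3, 18.2 and 17.8 CPM at 16 h, against 4.16, 1.51 and 2.07 CPM at 0 h (log2 fold change 2.94 ± 0.21 (SE), adjusted p = 3.4e-16), and FERMT1, an integrin activator, had 24.5, 24 and 23.1 CPM at 16 h, against 4.05, 2.85 and 3.3 CPM at 0 h (log2 fold change 2.83 ± 0.12 (SE), adjusted p = 3.6e-23). The rises of SLC7A5P2 (3.85 ± 0.83), SNX25P1 (3.16 ± 0.45) and SMG1P4 (3.08 ± 0.39), all pseudogenes, of the read-through BLOC1S5-TXNDC5 (3.39 ± 1.47) and of CERS1 (2.96 ± 0.61), which shares a transcript with GDF1, are uncertain since their reads may belong to another gene, and that of BLOC1S5-TXNDC5 was lost with DESeq2 (adjusted p = 0.241) and without 0 h replicate 2 or 3 or 16 h replicate 2 or 3 (adjusted p = 0.0581 to 0.172).

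Among genes ranked by the same limits, the largest falls were deeper than the largest rises were high. Those of KCNA1, CXCL14 and EGR2, given above, were the deepest under these limits. IGFBP5, a binding protein for insulin-like growth factors in bone, had 3.04, 2.81 and 2.29 CPM at 16 h, against 220.2, 190.3 and 212 CPM at 0 h (log2 fold change -6.22 ± 0.13 (SE), adjusted p = 4.4e-34). The long noncoding RNA MIAT had 4.93, 4.57 and 2.97 CPM at 16 h, against 284, 275 and 294 CPM at 0 h (log2 fold change -6.05 ± 0.099 (SE), adjusted p = 1.5e-37), and LBH, a transcriptional cofactor, had 7.22, 8.33 and 8.34 CPM at 16 h, against 319, 347 and 355 CPM at 0 h (log2 fold change -5.44 ± 0.074 (SE), adjusted p = 2.7e-40). XIRP1, an actin-binding protein, and SMOC1, a matrix protein, fell, with log2 fold changes of -5.56 ± 0.17 and -5.33 ± 0.11. Of genes with 3 or fewer counts in a group, PDGFB, a growth factor, had 2 counts at 16 h and 195 at 0 h, a ratio of 86.1 in favour of 0 h (exact 95% interval 23.5 to 716). KIAA1210 had 2 counts at 16 h and 336 at 0 h. Among abundant genes with a change of at least 2-fold, HMGA1, a chromatin protein, had 1224, 1319 and 1239 CPM at 16 h, against 502, 481 and 464 CPM at 0 h (log2 fold change 1.39 ± 0.035 (SE), adjusted p = 2.1e-31), and the nuclear import receptor KPNB1 rose by 1.02 ± 0.022, the kinase PRKDC by 1.05 ± 0.031 and the elongation factor EEF1A2 by 1.02 ± 0.03. The cytoskeletal genes ACTG1, with 1309.5, 1281 and 1246 CPM at 16 h, against 2597, 2716 and 2654 CPM at 0 h (log2 fold change -1.05 ± 0.024 (SE), adjusted p = 1.4e-32), and TPM1, with -1.39 ± 0.041, fell, as did AHNAK (-1.17 ± 0.04) and the keratin KRT17 (-1.18 ± 0.032).

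The 16 h point was then set between its neighbours in time. Against 8 h, 9893 genes had changed (52%), 5099 upward (26.8%) and 4794 downward (25.2%). From 16 to 24 h 3343 genes changed (17.6%), 1400 upward (7.35%) and 1943 downward (10.2%). Replication genes moved mainly before 16 h: 43 of 46 rose and none fell between 8 and 16 h, while 3 rose and 2 fell between 16 and 24 h. UHRF1 averaged 62.2, 106, 158 and 156 CPM at 0, 8, 16 and 24 h. Ribosomal protein genes rose late, with 74 of 78 higher at 16 h than at 8 h and 49 of 78 higher again at 24 h. RPL8 averaged 1365, 1329, 1582, 2312 and 2389.9 CPM at 0, 4, 8, 16 and 24 h. Ribosome biogenesis genes differed among themselves, with 25 of 51 higher and 13 lower at 16 h than at 8 h. DDX21, a nucleolar helicase, averaged 376, 598, 968 and 779.9 CPM at 0, 4, 8 and 16 h, and the step from 8 to 16 h was -0.31 ± 0.03, adjusted p = 5.2e-12.

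Several genes had their highest mean before 16 h. DDIT3 averaged 24, 63.9, 39.7, 38.3 and 24.5 CPM at 0, 2, 4, 8 and 16 h, so its level near the untreated one at 16 h came after a highest mean at 2 h. ATF3 averaged 131, 396, 136, 57.5 and 40.0 CPM at the same times, above the untreated level at 2 h and below it from 8 h on. EGR2 averaged 55.5, 117, 18.5, 5.91 and 0.372 CPM at these times, also with its highest mean at 2 h. SLC7A5 averaged 237, 374, 406, 130.1 and 152 CPM at 0, 4, 8, 16 and 24 h, and fell between 8 and 16 h (log2 change -1.65 ± 0.047, adjusted p = 1.5e-28). BCL2A1 averaged 0.0989, 2.76, 13.9 and 2.12 CPM at 0, 4, 8 and 16 h. INHBA, the activin subunit, averaged 244, 427, 422 and 102 CPM at 0, 4, 8 and 16 h, with means above the untreated one at 4 and 8 h. KRT17 averaged 921, 1143, 406 and 176 CPM at 0, 8, 16 and 24 h. Of the 21 transporters 6 were higher and 11 lower at 16 h than at 8 h. From 16 to 24 h 8 of 21 rose and none fell. Among the 8 was SLC38A2, with a step from 16 to 24 h of 0.61 ± 0.048, adjusted p = 1.0e-12. HSPA5 averaged 636, 443, 462, 343, 241 and 292 CPM over the 6 times, lowest at 16 h, with a later step of 0.28 ± 0.033, adjusted p = 2.6e-08.

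**Figure D3:**
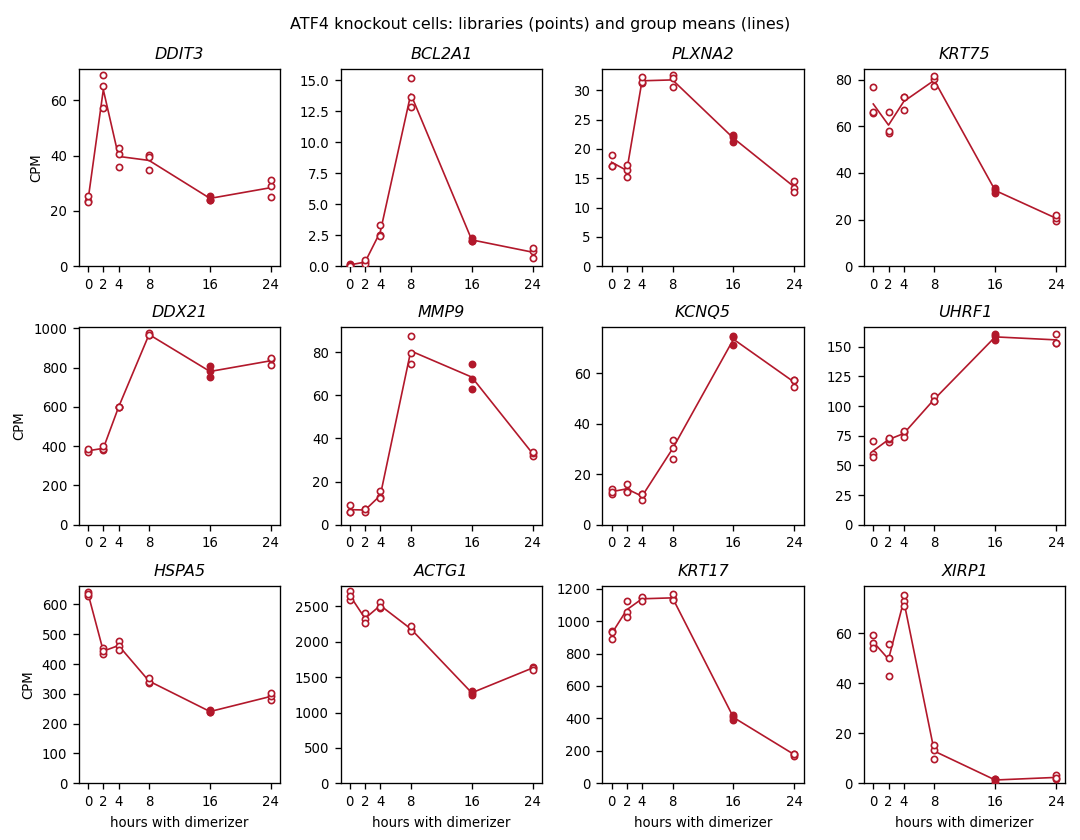
Levels (CPM) of 12 genes in ATF4 knockout cells at 0, 2, 4, 8, 16 and 24 h with dimerizer, with 1 point per library (filled at 16 h) and lines through the means of 3 libraries. DDIT3 is highest at 2 h and BCL2A1 at 8 h, KCNQ5 is highest at 16 h and UHRF1 is high at 16 and 24 h, and HSPA5 and ACTG1 are lowest at 16 h.

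The change at 16 h was last compared between the genotypes, as the knockout change minus the WT change. In WT cells 12673 genes changed at 16 h (66.5%), 6419 upward (33.7%) and 6254 downward (32.8%). The difference of the changes was called in 5283 genes (27.7%), more positive in the knockout in 3179 (16.7%) and more negative in 2104 (11%), and its median over all tested genes was 0.039. The excess of positive calls depended on the fit: with only the groups of the contrast the counts were 2522 more positive and 2419 more negative. The direction turned only with a 2-fold minimum, which asks for larger differences, at 31 and 213. At 0 h the genotypes already differed in level for some of these genes, so a difference in change is not a difference in level. In the stress response list 20 of 27 members were more negative in the knockout and 1 more positive, and its median was -0.26 in the knockout and 1.61 in WT. TRIB3 had 38.7 ± 4.57 CPM at 16 h and 22.4 ± 1.45 CPM at 0 h in knockout cells, and 338 ± 4.77 CPM at 16 h and 26.6 ± 0.844 CPM at 0 h in WT cells (SD, n = 3 each), a difference of -2.88 ± 0.10, adjusted p = 6.0e-25. ASNS rose by 2.72 ± 0.043 in WT, and the difference was -2.98 ± 0.10, adjusted p = 5.7e-25. For CEBPG no difference was called, with 1.85 ± 0.068 in the knockout and 1.90 ± 0.053 in WT (difference -0.049 ± 0.091, adjusted p = 0.76), and ATF4 rose somewhat more in the knockout (0.35 ± 0.045, adjusted p = 2.7e-08).

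Amino acid enzymes (16 of 26), transporters (15 of 21) and cytosolic tRNA synthetases (11 of 20) also held many members with a more negative change in the knockout, against 7, 2 and 6 with a more positive one. MTHFD2 rose in both, by 1.33 ± 0.051 in the knockout and 2.19 ± 0.041 in WT (difference -0.86 ± 0.067, adjusted p = 6.7e-14), and SLC1A5 likewise, by 1.01 ± 0.053 and 2.09 ± 0.041 (difference -1.08 ± 0.068, adjusted p = 8.7e-17). CARS fell in the knockout and rose by 1.45 ± 0.041 in WT. GLUL had its difference in the other direction, 1.20 ± 0.27, adjusted p = 4.5e-04. In the ER chaperone list 17 of 28 members were more negative and none more positive. HSPA5 rose by 0.38 ± 0.028 in WT, a difference of -1.78 ± 0.043, adjusted p = 9.9e-31. HSP90B1 fell in both genotypes, at -1.09 ± 0.025 in the knockout and -0.61 ± 0.024 in WT. HERPUD1 had 144 ± 0.705 CPM at 16 h and 144 ± 3.92 CPM at 0 h in WT (SD, n = 3 each) and a difference of -2.55 ± 0.071, adjusted p = 1.4e-28, and XBP1 rose by 1.34 ± 0.045 in WT. NRF2 and glutathione genes (16 of 26), autophagy genes (20 of 37) and lysosomal genes (21 of 45) also held many members with a more negative change in the knockout. In these lists 2, 1 and 3 members had a more positive one. SRXN1, sulfiredoxin, rose by 0.70 ± 0.045 in the knockout and 1.45 ± 0.038 in WT (difference -0.76 ± 0.059, adjusted p = 9.1e-14).

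In several lists that rose, many members had a more positive change in the knockout. Of 50 mitotic genes 40 were more positive in the knockout and none more negative, with list medians of 0.42 in the knockout and 0.05 in WT, and of 46 replication genes 39 and none, with medians of 0.97 and 0.54. CDC20 rose by 0.92 ± 0.038 in the knockout and by 0.18 ± 0.037 in WT (difference 0.73 ± 0.053, adjusted p = 8.5e-15), while the difference for CDC6 was not called (0.032 ± 0.077, adjusted p = 0.82). Ribosome biogenesis (34 of 51), ribosomal proteins (32 of 78), nuclear respiratory genes (24 of 46), heat shock genes (22 of 29) and proteasome genes (15 of 35) followed, with a more negative change in 1 heat shock gene and in no member of the other 4 lists. Cytokines were divided, with 6 of 22 more positive in the knockout and 7 more negative. For immediate early genes (9 more positive and 6 more negative of 36) and cholesterol genes (3 and 10 of 29), most differences were not called. This does not show that the genotypes acted alike. COL1A1 fell in both, at -1.31 ± 0.036 in the knockout and -1.75 ± 0.036 in WT (difference 0.45 ± 0.05, adjusted p = 1.6e-09), and MMP9 rose by 3.34 ± 0.15 in the knockout and 1.95 ± 0.13 in WT (difference 1.40 ± 0.22, adjusted p = 3.1e-06).

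**Figure D4:**
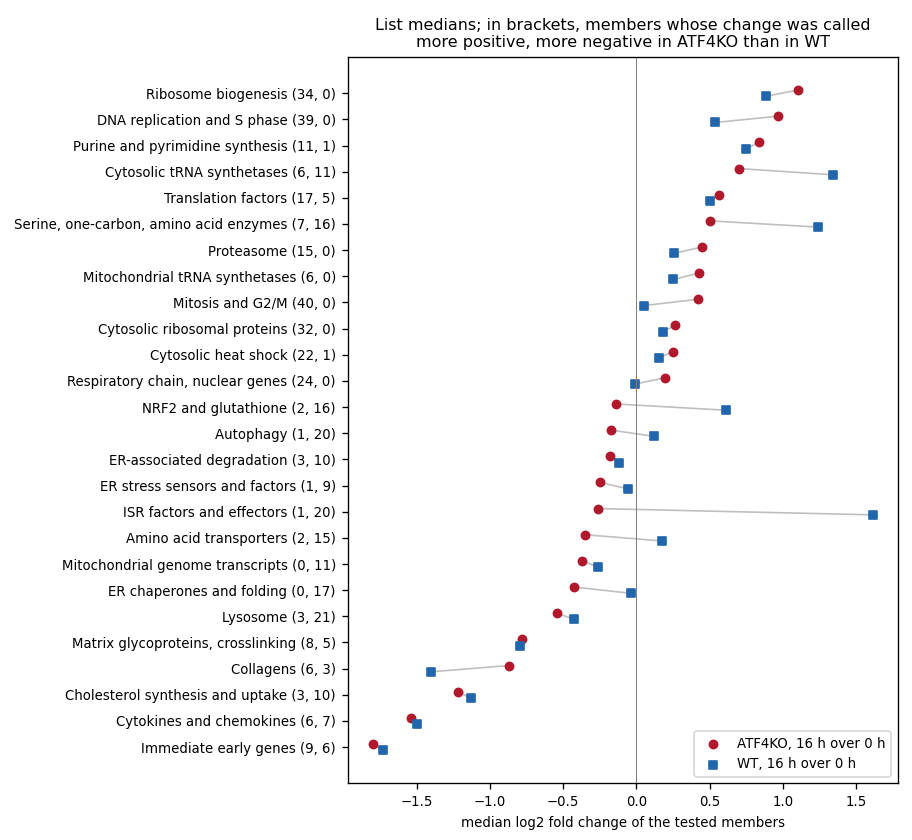
Median log2 fold change of the tested members of 26 gene lists at 16 h over 0 h in ATF4 knockout (circles) and WT (squares) cells, with the number of members whose change was called more positive and more negative in the knockout in brackets. The widest gap is that of the stress response list, with -0.26 in the knockout and 1.61 in WT.

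Some genes moved in opposite directions. Among genes with a called difference, 298 fell in the knockout and rose in WT, and 171 rose in the knockout and fell in WT. With a change of at least 2-fold in both genotypes these counts were 37 and 1, and 30 and 1 among genes with more than 3 counts in each of the 4 groups. DDIT4 had 5.33, 5.98 and 5.26 CPM at 16 h in knockout cells, and 284, 296 and 300.1 CPM at 16 h in WT cells, a difference of -5.14 ± 0.14, adjusted p = 1.1e-28. OLAH, a thioesterase that releases medium-chain fatty acids, had 0.675, 0.704 and 0.343 CPM at 16 h and 3.22, 2.05 and 2.59 CPM at 0 h in knockout cells, and 51.3 ± 2.88 CPM at 16 h and 1.31 ± 0.645 CPM at 0 h in WT cells (SD, n = 3 each; difference -7.31 ± 0.33, adjusted p = 2.1e-21). ANK2, a membrane adaptor of the spectrin skeleton, had 0.675, 0.352 and 0.8 CPM at 16 h in knockout cells, and 50.8 ± 0.91 CPM at 16 h and 3.53 ± 0.141 CPM at 0 h in WT cells (difference -5.81 ± 0.33, adjusted p = 5.1e-18). PHGDH fell in the knockout and rose by 1.28 ± 0.04 in WT (difference -3.90 ± 0.15, adjusted p = 9.4e-24). The 1 gene with the reverse pattern was LECT2, a secreted liver protein named after its values were seen, at 1.82 in the knockout and -1.51 in WT. KRT75, a keratin, fell in both but less in the knockout, with 32.5 ± 1.06 CPM at 16 h and 69.6 ± 6.23 CPM at 0 h in knockout cells and 6.98 ± 0.883 CPM at 16 h and 78.2 ± 1.89 CPM at 0 h in WT cells (difference 2.40 ± 0.13, adjusted p = 6.0e-19). CGB8, which has near-identical relatives in the chorionic gonadotropin cluster, rose by 1.41 ± 0.24 in the knockout, against a lower level at 16 h in WT, at -0.99 ± 0.29 (difference 2.39 ± 0.38, adjusted p = 2.5e-06).

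**Figure D5:**
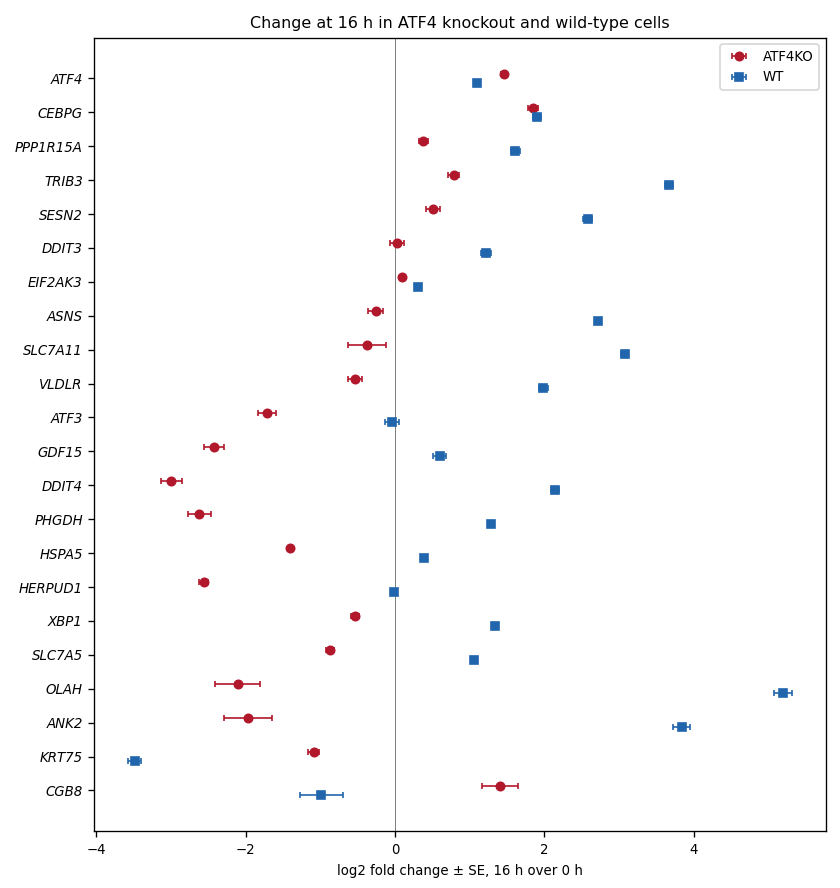
Log2 fold change at 16 h over 0 h with its SE for 22 named genes in ATF4 knockout (circles) and WT (squares) cells. ATF4 and CEBPG lie right of 0 in both genotypes, DDIT4, PHGDH, OLAH and ANK2 lie on opposite sides of 0, and CGB8 lies right of 0 in the knockout.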

How the data were processed

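The values were the authors' deposited expected counts per gene for 36 libraries, made with Salmon 0.9.1 against GRCh38 after FastQC 0.11.5, per the submitters' processing notes. The authors' deposited TPM table gave gene symbols only, since a TPM column of the untreated knockout did not match its counts (r = 0.513, 0.517 and 0.498 with the 3 count columns). Untreated knockout count columns 1, 2 and 3 correlated best with TPM columns 2, 1 and 2 (r = 0.919, 0.96 and 0.966). For count column 1 the margin was small (0.914 with TPM column 1). Of all 36 libraries 33 matched best by name. Replicate numbers of the untreated knockout may therefore differ between counts and TPM. The annotation release and strand setting are not given in the sources used here. Counts were rounded, filtered with filterByExpr (19043 genes of 44932 with any count), scaled by TMM and fitted over all 36 libraries and 12 groups in edgeR 4.0.16, by its quasi-likelihood test, under R 4.3.3. SE is the absolute log2 fold change over the root of F. The fit was also run on simulated data in which few genes changed. Most genes were called in the real comparison, so that run does not test the fit in this setting. Replicates differed beyond sampling noise (chi-square per degree of freedom 1.36 to 1.86). The alternatives tried were a replicate block, a 2-fold minimum, RLE scaling, fewer samples, no filter, each library left out, and DESeq2 1.42.0. Named genes were 16 stress genes, the 12 largest rises and falls, up to 7 genes per list, and extremes of the difference, of abundance and of near-silent genes. Members and lists were chosen with earlier results of these data known. Promoters are from RefSeq (GRCh38.p14), and positions from GENCODE 29 (53330 of 57665 identifiers matched). A few members of the lists are not reported here.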

Additional observations from a re-analysis of the deposited data

Results flagged for a closer look

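The genes here are those of the 16 followed stress genes, and of the 6 most positive and 6 most negative called differences among genes that averaged 1 CPM or more, with more than 3 counts in each of the 4 groups, no overlap between treated and untreated knockout libraries and a symbol of their own, whose change at 16 h differed between the genotypes by the test of the difference itself (knockout change minus WT change, log2, edgeR quasi-likelihood test). Groups of 3 libraries were not examined for single outlying samples. No explanation was tested for any of these differences.

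The knockout change was more negative in most. Values are log2 differences. OLAH stood at -7.31, ANGPT4, an angiopoietin, at -5.82, ANK2 at -5.81, TSLP, an epithelial cytokine, at -5.41 and RP11-443P15.2 at -5.33. TSLP's own fall in the knockout (-0.79 ± 0.34, adjusted p = 0.038) was lost with DESeq2 (adjusted p = 0.0537), without a filter on low counts (adjusted p = 0.0908) and whenever any of 5 single libraries was left out. DDIT4 stood at -5.14, the cystine transporter SLC7A11 at -3.45, GDF15 at -3.02, ASNS at -2.98 and TRIB3 at -2.88. VLDLR stood at -2.52, SESN2 at -2.08, HSPA5 at -1.78 and ATF3 at -1.67. PPP1R15A stood at -1.23, DDIT3 at -1.18 and EIF2AK3 at -0.22. SLC7A11 had 1.68 ± 0.498 CPM at 16 h and 2.22 ± 0.451 CPM at 0 h in knockout cells and 294 ± 5.75 CPM at 16 h and 35 ± 2.01 CPM at 0 h in WT cells (SD, n = 3 each), so the genotypes differed in level before treatment.

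The knockout change was more positive in 7 genes. ATF4 stood at 0.35. EDN2, an endothelin, stood at 2.12 and DRD1, a dopamine receptor, at 2.18, and both fell in both genotypes. KRT75 stood at 2.40 and CGB8 at 2.39. The pseudogenes SMG1P4 and HNRNPA1P66 stood at 2.28 and 2.44, and their reads may belong to their parent genes.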

How the results depend on the processing

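For knockout 16 h against 0 h, no named gene called in the main fit or in an alternative changed direction between them. Direction was not compared for genes called in neither fit, nor for single genes in the other comparisons. The counts of called genes over the whole table stayed within 1.5 times their values except with a 2-fold minimum. That minimum left 667 genes higher and 1563 lower for 16 h against 0 h, 31 and 213 for the difference between genotypes, 64 and 500 for 16 h against 8 h, and 2 and 1 for 24 h against 16 h. With each library left out in turn, 16 h against 0 h gave 5959 to 6167 genes higher and 5780 to 6030 lower, the difference 2505 to 3068 and 1829 to 2164, 16 h against 8 h 4545 to 4878 and 4462 to 4647, and 24 h against 16 h 1005 to 1208 and 1383 to 1665. RLE scaling gave 6131 higher and 6355 lower, and DESeq2 gave 5752 and 5814. With the replicate number as a block, 6308 genes were higher and 6219 lower. Same-numbered knockout libraries at 16 h and 0 h did not deviate together over all tested genes (correlations of -0.0161, -0.0154 and 0.0243). Counting noise in low genes weakens such correlations, so they cannot exclude that the numbers pair the wells. The ribosomal protein genes that fell numbered 4, and 1 to 2 with 1 library left out or no filter. Depth limits genes under about 1 CPM, such as CHAC1, where a library holds few reads. The causes of these shifts were not tested.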

Other observations

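Gene classes differed in how often their members were called. Of 12535 tested protein-coding genes 4941 rose (39.4%) and 4425 fell (35.3%), with a median level of 27.9 CPM. Of 1177 long intergenic noncoding RNAs 144 rose (12.2%) and 337 fell (28.6%), with a median log2 fold change of -0.24 and a median level of 1.43 CPM. Of 1186 genes annotated as antisense 140 rose (11.8%) and 279 fell (23.5%), and without a stated strand setting their reads cannot be told apart from those of the opposite gene. Of 22 annotated small nucleolar RNAs 11 rose and none fell, at a median of 0.888 CPM. The level differs between the classes beside their shares of calls, and its part in those shares was not tested.

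The noncoding gene RP11-603J24.9, on chromosome 12, had 225 counts over the 16 h libraries and 0 over the 0 h libraries, at least 85-fold higher when the 0 is read as 3 counts over the group. Its level was 2.64 CPM at 8 h, 7.04 CPM at 16 h and 5.25 CPM at 24 h. In WT cells it had 0, 2.13 and 3.64 CPM at 16 h and 1.19, 7.39 and 2.11 CPM at 0 h. EDNRA, the endothelin A receptor, had 29 counts at 16 h and 2 at 0 h, a ratio of 16.4 (exact 95% interval 4.16 to 142). ZNF204P, a zinc finger pseudogene, had 3 counts at 16 h and 99 at 0 h, a ratio of 29.1 in favour of 0 h (exact 95% interval 9.68 to 144). These intervals cover counting error only.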
